A study of Mus musculus with 17 samples.

Results

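The guanylate-binding proteins (GBPs) considered here are the products of 8 mouse genes, *Gbp2*, *Gbp3*, *Gbp4*, *Gbp6*, *Gbp7*, *Gbp8*, *Gbp9* and *Gbp11*, taken by gene symbol from the 55357 genes measured in sorted β cells with and without the RNA-binding protein PCBP2. The 8 were chosen by name, with results of the same data in view, in particular the measured differences between knockout and control cells. Those differences are therefore given as a description without a p value. All 8 had enough counts to be among the 22784 genes tested. The files also hold 4 further genes of the family, of which *Gbp5* and *Gbp10* could be tested and *Gbp2b* and *Gbp2-ps* were below the filter on low counts.

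The cells came from islets of male mice on a C57BL/6 background. The islets were kept for 3 days at a glucose concentration of 2.8 or of 16.7 mM, after 3 days of recovery at an intermediate concentration. They were then dispersed and sorted for the red reporter tdTomato. Control mice (WT in the labels) carried the Cre-dependent tdTomato reporter and RIP-Cre, a Cre transgene under the rat insulin promoter, and gave 3 samples at 2.8 mM and 4 at 16.7 mM. Knockout mice (RIPCre+;Pcbp2Fl/Fl;Tdtomato in the labels, here *Pcbp2* βKO) carried floxed alleles of *Pcbp2* in addition to the same transgene and reporter, and gave 5 samples at each concentration. The labels name no floxed allele for the control mice, and neither the age of these mice nor whether islets of several mice were pooled was given in the sources used here. Nothing states that replicates came from separate animals, so the p values below measure the spread between these samples.

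GBPs are large GTPases of the dynamin superfamily. They are among the genes most strongly induced by interferon-γ, which acts through its receptor and the kinases JAK1 and JAK2, and they gather on the membranes of bacteria and of vacuoles that hold intracellular pathogens. Some members, such as GBP2 and GBP5, end in a signal for prenylation that anchors them in membranes. In the mouse the family lies in 2 clusters, on chromosomes 3 and 5, and interferon-γ also induces these genes in β cells.

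In GRCm39, the build of the deposited quantification, the 5 members of the chromosome 5 cluster lay on the minus strand over chr5:105162016-105494338, in the order *Gbp8*, *Gbp9*, *Gbp4*, *Gbp6* and *Gbp11*, with *Gbp10* between *Gbp4* and *Gbp6*. *Gbp7*, *Gbp3* and *Gbp2* lay on the plus strand over chr3:142236044-142343779. All 8 genes are annotated as protein coding, but Gbp11-201, the main transcript of *Gbp11*, is marked in the files as a polymorphic pseudogene. The coding sequences of the chromosome 5 members were 90.6% to 95.9% identical to each other, whereas *Gbp3* and *Gbp7* shared 79.5% and *Gbp2* shared 66.9% to 71.0% with the other members. The identity bears on the measurement, because reads from a stretch common to several genes have to be divided among them.

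The stretch of 60 bases that encodes the P-loop, the phosphate-binding part of the GTP site, shows how alike the members are. It lies in exon 2 of every member and is given from the reference transcripts (GENCODE vM39, GRCm39), 5′ to 3′ on the coding strand, with capitals for bases that differ from *Gbp8*. Its positions are chr5:105198746-105198805 in *Gbp8*, chr5:105491628-105491687 in *Gbp11*, chr5:105253546-105253605 in *Gbp9*, chr5:105438719-105438778 in *Gbp6* and chr5:105284720-105284779 in *Gbp4*. On chromosome 3 they are chr3:142267621-142267680 in *Gbp3*, chr3:142240398-142240457 in *Gbp7* and chr3:142329569-142329628 in *Gbp2*.
Gbp8: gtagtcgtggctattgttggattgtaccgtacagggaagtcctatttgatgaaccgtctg
Gbp11: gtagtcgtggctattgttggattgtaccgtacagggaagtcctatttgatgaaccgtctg
Gbp9: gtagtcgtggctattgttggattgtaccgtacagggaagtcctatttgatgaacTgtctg
Gbp6: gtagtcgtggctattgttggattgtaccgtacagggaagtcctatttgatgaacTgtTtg
Gbp4: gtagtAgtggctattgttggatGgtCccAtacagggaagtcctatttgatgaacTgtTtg
Gbp3: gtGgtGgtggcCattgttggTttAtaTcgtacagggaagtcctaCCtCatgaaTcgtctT
Gbp7: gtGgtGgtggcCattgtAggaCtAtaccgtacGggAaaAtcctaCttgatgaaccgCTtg
Gbp2: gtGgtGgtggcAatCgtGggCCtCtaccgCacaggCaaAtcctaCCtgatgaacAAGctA
*Gbp11* did not differ from *Gbp8* in this stretch (0 bases), *Gbp9* differed in 1 base, *Gbp6* in 2 and *Gbp4* in 6, while *Gbp3*, *Gbp7* and *Gbp2* differed in 11, 12 and 17.

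Over whole transcripts more of the sequence was particular to each gene. Of the stretches of 31 bases in its transcripts, the share found in no other gene was 68.0% for *Gbp8*, 65.7% for *Gbp11*, 84.5% for *Gbp9*, 84.6% for *Gbp4*, 85.5% for *Gbp7*, 94.5% for *Gbp3* and 95.2% for *Gbp2*. *Gbp6* was the exception with 28.3%, because 65.1% of its stretches also occur in *Gm43302*, a gene model annotated across *Gbp6* and *Gbp10*. *Gbp10* itself held 8.67% of stretches of its own and shared 83.9% with *Gbp6*, so values of *Gbp6* and *Gbp10* are uncertain. The gene models of *Gbp8*, *Gbp9* and *Gbp4* overlap on the same strand, and an assignment of reads from their overlap is uncertain as well.

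Promoter sequences were at hand for the chromosome 3 members *Gbp7*, *Gbp3* and *Gbp2*, from RefSeq (GRCm38.p6, a window around the start of transcription), and not for *Gbp4*, *Gbp6*, *Gbp8*, *Gbp9* and *Gbp11*. They were searched on both strands for TTCNNNGAA, the pattern of the gamma-activated site (GAS), and for a pair of GAAA with any 2 bases between them, that of the interferon-stimulated response element (ISRE). The *Gbp7* promoter held 2 GAS matches and 1 ISRE match, and the *Gbp2* promoter held 1 ISRE match. An annotated *Gbp3* promoter held 2 ISRE matches that overlap, and another annotated *Gbp3* promoter held 0 matches of either pattern. Among all 32851 promoters of the table, 8.30% held the GAS pattern and 3.44% the ISRE pattern. The matches are shown in capitals within their surroundings, since GAS and ISRE are the types of sequence through which interferon is known to act on this family. They are matches to a pattern, and whether these sites are used was not tested. The windows are given on the plus strand, where the ISRE reads as its reverse complement, at chr3:142235983-142236061, chr3:142265752-142265783 and chr3:142326357-142326382 of GRCm39.
Gbp7: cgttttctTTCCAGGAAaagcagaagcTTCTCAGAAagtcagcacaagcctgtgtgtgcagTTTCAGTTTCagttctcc
Gbp3: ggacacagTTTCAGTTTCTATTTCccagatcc
Gbp2: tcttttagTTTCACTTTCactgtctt

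The 17 libraries held 47385513 to 82419400 estimated counts each. Values are normalised read counts, scaled to library size (CPM) with TMM factors, and a difference was called when its adjusted p was under 0.05 and its size over 1.5-fold. *Pcbp2* itself was checked first. Its CPM was 50.7 to 73.4 in control cells at 2.8 mM and 35.0 to 45.4 at 16.7 mM, against 15.5 to 19.2 and 5.81 to 10.03 in *Pcbp2* βKO cells, so every knockout sample lay below every control sample at its glucose concentration (3.58-fold and 5.27-fold lower, edgeR's quasi-likelihood test, adjusted p = 3.61e-06 and 7.55e-08). The 10 β cell markers were detected in every sample, with a summed CPM of 66823 to 525574. On the first principal component, replicate 4 of control cells at 16.7 mM (score 9.9) and replicates 4 and 5 of *Pcbp2* βKO cells at 16.7 mM (21.4 and 33.2) stood apart from the other samples at that concentration, which scored 90.9 to 99.1. Results were therefore also computed without these 3 libraries. The samples at 2.8 mM scored -105.5 to -42.4, so the 3 were those at 16.7 mM nearest to them. Leaving them out can by itself enlarge a glucose difference.

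In control β cells the chromosome 5 cluster was the more abundant. The CPM of its 5 members summed to 83.9 ± 34.7 (SD, n = 3) at 2.8 mM and 53.5 ± 26.1 (n = 4) at 16.7 mM, and that of the 3 chromosome 3 members to 12.8 ± 3.05 and 11.5 ± 2.37. Per transcript length, in the deposited TPM, *Gbp8* had the highest level in control cells, 14.5 at 2.8 mM and 7.55 at 16.7 mM. At 2.8 mM it was followed by *Gbp11* (8.15 TPM), *Gbp6* (4.73), *Gbp7* (3.37), *Gbp9* (1.35) and *Gbp4* (1.04). Only between *Gbp7* and *Gbp9* did the ranges of neighbours in this order not overlap. *Gbp3* and *Gbp2* were near the limit of detection, at 0.199 and 0.0861 TPM, and *Gbp5* and *Gbp10* lay at 0.292 and 0.164 TPM.

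The order was another in *Pcbp2* βKO cells. *Gbp7* had the highest mean level, 2.98 TPM at 2.8 mM and 1.36 TPM at 16.7 mM, followed at 2.8 mM by *Gbp6* (2.43 TPM), from which it was not separated, and by *Gbp8* (0.728 TPM). At 16.7 mM *Gbp8* and *Gbp6* were at 0.459 and 0.415 TPM. *Gbp9* had the lowest mean of the 8 members, at 0.0573 and 0.0182 TPM. At 16.7 mM this order rests on knockout replicate 4, with 0.100409 TPM of *Gbp11*, since in the other 4 libraries *Gbp11*, at 0 to 0.00268 TPM, was below *Gbp9*. The summed CPM of the 5 chromosome 5 members was 9.85 ± 2.79 (SD, n = 5) at 2.8 mM and 4.82 ± 2.90 at 16.7 mM, while that of the 3 chromosome 3 members was 11.3 ± 4.21 and 9.9997 ± 1.92.

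The comparison of genotypes asked which transcripts differ between *Pcbp2* βKO and control β cells. In the chromosome 5 cluster *Gbp8*, *Gbp9*, *Gbp4* and *Gbp11* were lower in *Pcbp2* βKO cells at both glucose concentrations, by 7.22-fold to 87.0-fold, and no knockout sample reached the lowest control sample of these genes. Of the 8 members, 4 were called lower at 16.7 mM, where 1.42% of all tested genes were, and the same 4 at 2.8 mM, where 1.78% of all tested genes were. The members were chosen with these contrasts in view, so nothing is read from these shares. All knockout samples lay below every control sample for 4 of 8 members at 16.7 mM (2.64% of all tested genes) and for 5 of 8 at 2.8 mM (6.88%), the added one being *Gbp6*. As the RNA is that of sorted populations, fewer cells that express a gene and less RNA per cell cannot be told apart.

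*Gbp8*, the most abundant member in control cells, measured 26.4, 30.7 and 48.6 CPM in the control samples at 2.8 mM and 17.4, 29.5, 55.3 and 23.1 CPM at 16.7 mM, in the order of the replicate numbers. In *Pcbp2* βKO cells it measured 0.882, 1.72, 0.753, 2.20 and 2.40 CPM at 2.8 mM and 1.86, 1.64, 1.43, 2.85 and 2.22 CPM at 16.7 mM. The genotypes did not overlap, and the highest knockout sample was still several times below the lowest control sample. Its log2 fold change was -4.47 ± 0.40 (SE) at 2.8 mM, a 22.2-fold difference, and -3.96 ± 0.39 at 16.7 mM, a 15.6-fold difference.

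*Gbp9*, whose gene model lies within that of *Gbp8*, measured 3.29, 2.54 and 11.3 CPM in control cells at 2.8 mM and 2.45, 4.03, 10.8 and 2.49 CPM at 16.7 mM. The *Pcbp2* βKO samples measured 0.168, 0.258, 0.223, 0.260 and 0.110 CPM at 2.8 mM and 0.0855, 0.225, 0.139, 0.241 and 0.0771 CPM at 16.7 mM. These are 5 to 22 estimated counts per library, so that the knockout level is known less exactly than the control level. The log2 fold change was -4.81 ± 0.58 at 2.8 mM and -4.99 ± 0.58 at 16.7 mM.

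*Gbp4* measured 3.12, 1.46 and 6.39 CPM in control cells at 2.8 mM and 1.66, 2.85, 5.63 and 1.91 CPM at 16.7 mM. The *Pcbp2* βKO samples measured 0.324, 0.305, 0.678, 0.676 and 0.549 CPM at 2.8 mM and 0.240, 0.305, 0.185, 0.281 and 0.296 CPM at 16.7 mM. Its differences were the smallest of the 4, at -2.85 ± 0.45 on the log2 scale at 2.8 mM and -3.52 ± 0.45 at 16.7 mM.

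*Gbp11* measured 20.9, 10.4 and 34.8 CPM in control cells at 2.8 mM and 4.601, 6.18, 12.7 and 8.68 CPM at 16.7 mM. In *Pcbp2* βKO cells at 2.8 mM it measured 0.190, 0.0938, 0.700, 0.278 and 0.659 CPM. At 16.7 mM the estimated counts were 0, 0, 0, 31 and 1 in the 5 knockout libraries, against 225 to 757 in the 4 control libraries, so nearly all knockout counts came from replicate 4. The fitted log2 fold change was -5.82 ± 0.86 at 2.8 mM and -6.44 ± 0.92 at 16.7 mM. Without replicate 4 of the knockout the latter became -10.53, a value set by the small number added to a group left with counts of 0, 0, 0 and 1.

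**Figure D1:**
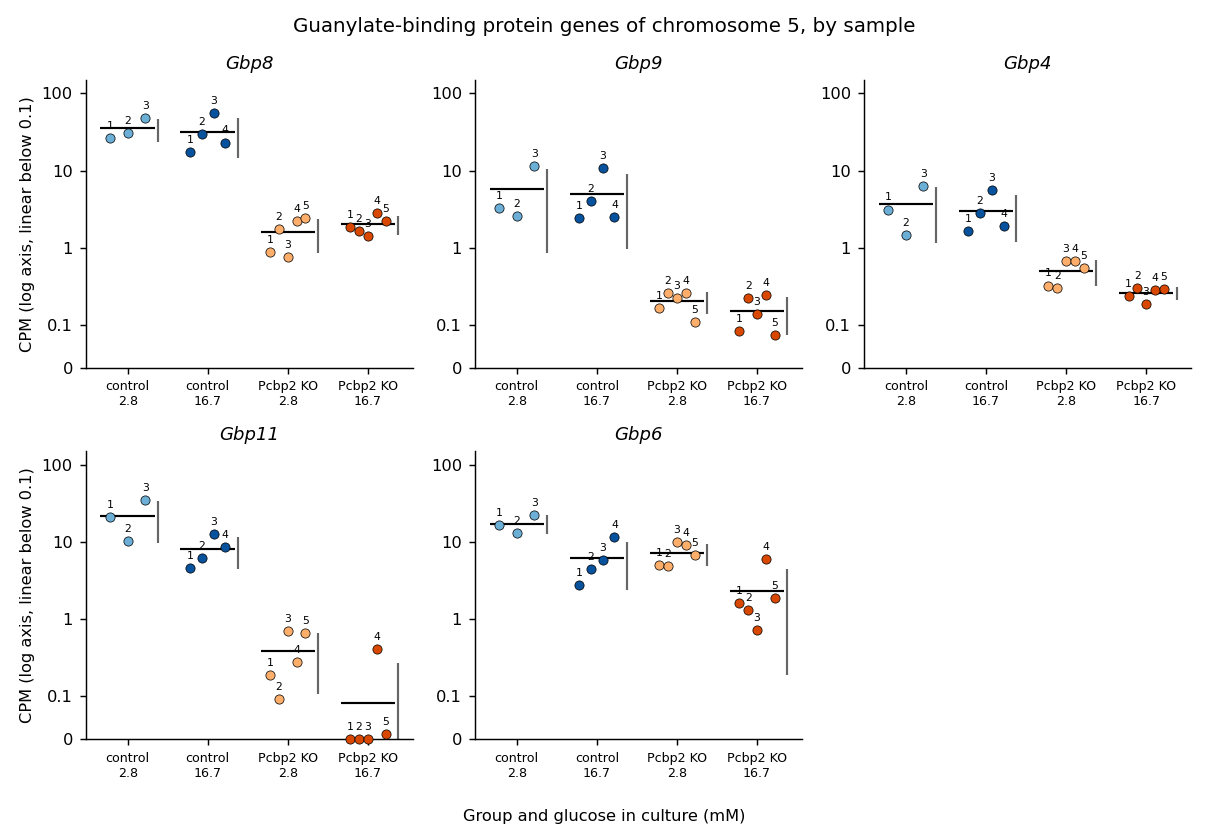
Expression of *Gbp8*, *Gbp9*, *Gbp4*, *Gbp11* and *Gbp6* in every sample. The y axis is CPM on a log scale that is linear below 0.1; points are samples with their replicate number, horizontal lines are group means and the vertical line beside each group spans 1 SD to either side. For the first 4 genes all knockout samples lie below all control samples, and the group means of *Gbp6* are lower at 16.7 mM than at 2.8 mM glucose in both genotypes.

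Among the control samples, replicate 3 was the highest for *Gbp8*, *Gbp9* and *Gbp4* at both glucose concentrations and for *Gbp11* as well. In *Gbp9* it reached 11.3 and 10.8 CPM, whereas the other control samples did not pass 4.03 CPM. Over the 17 samples the log2 CPM of *Gbp8* and *Gbp9* correlated with r = 0.949, that of *Gbp4* and *Gbp9* with r = 0.957 and that of *Gbp4* and *Gbp11* with r = 0.938, which describes samples that share genotype and glucose. *Gbp6* followed *Gbp11* (r = 0.790) more closely than *Gbp8* (r = 0.498).

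*Gbp6*, the fifth member of that cluster, was not called in either comparison of genotypes. It measured 16.8, 12.9 and 22.3 CPM in control cells at 2.8 mM, all above the 5.03, 4.90, 9.997, 9.12 and 6.75 CPM of *Pcbp2* βKO cells. At 16.7 mM the control samples at 2.78, 4.49, 5.90 and 11.6 CPM overlapped with the knockout samples at 1.61, 1.32, 0.724, 6.06 and 1.90 CPM. The log2 fold change was -1.28 ± 0.51 at 2.8 mM and -1.41 ± 0.49 at 16.7 mM. It was called at 16.7 mM when knockout replicate 4 at that concentration was left out (-2.16) and when the 3 libraries that stood apart were left out (-1.85). With the replicate number as a block it was called at both concentrations (-1.61 at 2.8 mM and -1.48 at 16.7 mM). That fit matches control and knockout samples of the same number, which were not taken to pair, so nothing is read from these calls.

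The chromosome 3 members showed no called difference between genotypes. With edgeR's quasi-likelihood test 0 of 3 were called at either concentration, 0 had an unadjusted p under 0.05, and DESeq2 and limma on log2 TPM called 0 as well. *Gbp7*, which has been linked to the assembly of the NADPH oxidase on phagosomes, measured 9.59, 15.7 and 11.4 CPM in control cells and 10.2, 15.9, 9.23, 8.93 and 4.55 CPM in *Pcbp2* βKO cells at 2.8 mM. At 16.7 mM it measured 8.59, 9.51, 11.8 and 12.8 CPM in control cells and 8.06, 8.27, 7.68, 9.95 and 10.7 CPM in the knockout. The samples of both genotypes overlapped throughout, and the log2 fold changes were -0.33 ± 0.28 and -0.26 ± 0.26.

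*Gbp3* and *Gbp2* were detected at low level. *Gbp3* ranged from 0.0336 to 0.983 CPM over the control samples and from 0.200 to 1.76 CPM over the knockout samples, with log2 fold changes of 1.47 ± 0.80 at 2.8 mM and 0.69 ± 0.71 at 16.7 mM. *Gbp2*, a prenylated member that acts against the parasite Toxoplasma, ranged from 0.0672 to 0.836 CPM in control cells and from 0.0447 to 0.848 CPM in the knockout, with log2 fold changes of 1.11 ± 0.81 and -0.67 ± 0.73. Errors of this size leave a change of either direction possible at this depth.

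**Figure D2:**
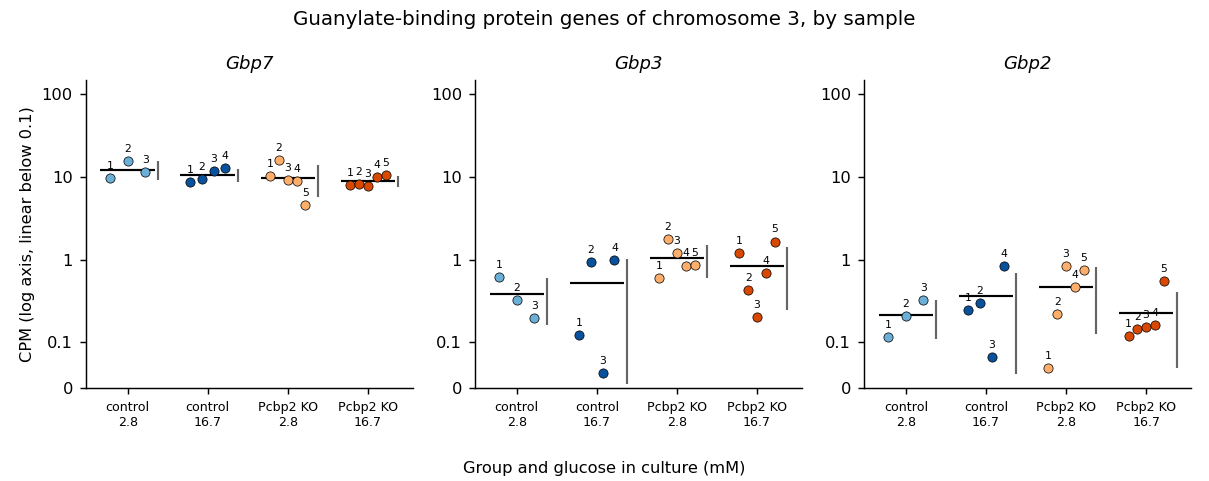
Expression of *Gbp7*, *Gbp3* and *Gbp2* in every sample, on the same CPM scale as the plot of the chromosome 5 genes; points are samples with replicate numbers, horizontal lines group means and vertical lines 1 SD to either side. Control and knockout samples overlap for all 3 genes at both glucose concentrations.

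Of the family genes outside the 8 members, *Gbp5*, a prenylated GBP known to promote the NLRP3 inflammasome, lies in the chromosome 3 cluster and ranged from 0.683 to 1.74 CPM in control cells and from 0.572 to 1.97 CPM in the knockout. Its log2 fold changes were -0.09 ± 0.38 at 2.8 mM and -0.0031 ± 0.36 at 16.7 mM. *Gbp10* in the chromosome 5 cluster had log2 fold changes of -0.60 ± 1.04 and -2.22 ± 1.02 from at most 90 estimated counts in any library, and was not called. *Gbp2b* did not pass 0.206 CPM in any sample, and *Gbp2-ps* had no count in any of the 17.

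The comparison of glucose concentrations asked which transcripts change during culture in 16.7 mM glucose. *Gbp6* was the only member called, in *Pcbp2* βKO cells, where its mean was lower at 16.7 mM. In control cells the log2 fold change of *Gbp6* from 2.8 mM to 16.7 mM was -1.48 ± 0.55, a 2.80-fold difference, and all 4 samples at 16.7 mM were below all 3 at 2.8 mM (edgeR's quasi-likelihood test, adjusted p = 0.0739). In *Pcbp2* βKO cells it fell by 1.62 ± 0.47 on the log2 scale, a 3.07-fold difference that was called (adjusted p = 0.0138), although knockout replicate 4 at 16.7 mM, at 6.06 CPM, lay within the range at 2.8 mM. The numbers of the control replicates were taken to pair those samples, by a rule that did not compare samples of different numbers. The fit with the replicate number as a block is given beside it as an alternative, from which nothing is read. Its block term is shared with the knockout samples, which were not taken to pair. Control replicate 4 has no partner at 2.8 mM, so the fit is not a purely paired comparison of control samples. In the block fit *Gbp6* fell by 2.00 ± 0.37 in control cells and was called (adjusted p = 0.00135). It was also called without the 3 libraries that stood apart (-2.01, adjusted p = 0.000888). These were the libraries at 16.7 mM most like those at 2.8 mM, so the larger difference is not read as added evidence.

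Of the 8 members, edgeR called 0 in control cells, where 13.8% of all tested genes were called in either direction, and 1 had an unadjusted p under 0.05. DESeq2 called 1 of 8, *Gbp6*, and limma called 3 on log2(TPM + 0.1) and 4 on log2(TPM + 1). In *Pcbp2* βKO cells 1 of 8 was called, against 23.8% of all tested genes, with 3 at an unadjusted p under 0.05. DESeq2 called 1 there, and limma called 3 and 2. With 8 members these counts are not read as differing from the share of all genes.

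*Gbp11* had log2 fold changes of -1.45 ± 0.80 in control cells (adjusted p = 0.247) and -2.08 ± 0.86 in *Pcbp2* βKO cells (adjusted p = 0.0792), with overlapping samples in both. The second value rests on knockout libraries with few counts, and without knockout replicate 4 at 16.7 mM it became -6.16 and was called. It was also called with the replicate block (-2.31, adjusted p = 0.0350), which matches knockout samples that were not taken to pair. *Gbp4* had -0.28 ± 0.46 in control cells (adjusted p = 0.748) and -0.95 ± 0.42 in the knockout (adjusted p = 0.1004), where the highest sample at 16.7 mM and the lowest at 2.8 mM were both at 0.305 CPM. For *Gbp8* the values were no larger than their errors, at -0.17 ± 0.40 and 0.34 ± 0.35, as for *Gbp9* (-0.21 ± 0.55 and -0.39 ± 0.54) and *Gbp7* (-0.20 ± 0.29 and -0.13 ± 0.24). The remaining members *Gbp3* and *Gbp2* had errors of 0.65 to 0.84.

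Library totals alone and the TPM scales moved the median of all genes in the glucose comparisons, whereas DESeq2's size factors did not. The β cell markers, insulin among them, moved with glucose as well. Their summed CPM in control cells was 118395 to 122656 at 2.8 mM and 271448 to 525574 at 16.7 mM, and in *Pcbp2* βKO cells 66823 to 96960 and 358434 to 474543. On the deposited TPM (log2 of TPM + 0.1) the median of all genes was -0.56 in control cells and -0.71 in the knockout, against 0.04 and 0.01 with TMM. On that scale *Gbp7* was called lower in both genotypes, at -0.997 and -0.985, which relative to the median of all genes is a smaller difference.

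Whether glucose acted differently in the absence of PCBP2 was tested by the interaction of genotype and glucose, a contrast that uses the same samples from which the knockout differences were taken. It called 0 of 8 members, 0 had an unadjusted p under 0.05, and DESeq2 and limma called 0, against 0.00439% of all tested genes, which is 1 gene. The difference between the glucose responses, knockout minus control, was 0.51 ± 0.53 on the log2 scale for *Gbp8*, -0.18 ± 0.76 for *Gbp9*, -0.66 ± 0.63 for *Gbp4*, -0.63 ± 1.16 for *Gbp11* and -0.14 ± 0.72 for *Gbp6*, each with an adjusted p of 1.00. For *Gbp7*, *Gbp3* and *Gbp2* it was 0.07 ± 0.38, -0.77 ± 1.04 and -1.78 ± 1.08. With errors of 0.38 to 1.16 on the log2 scale, differences between the responses that are larger than these errors can also remain undetected.

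**Figure D3:**
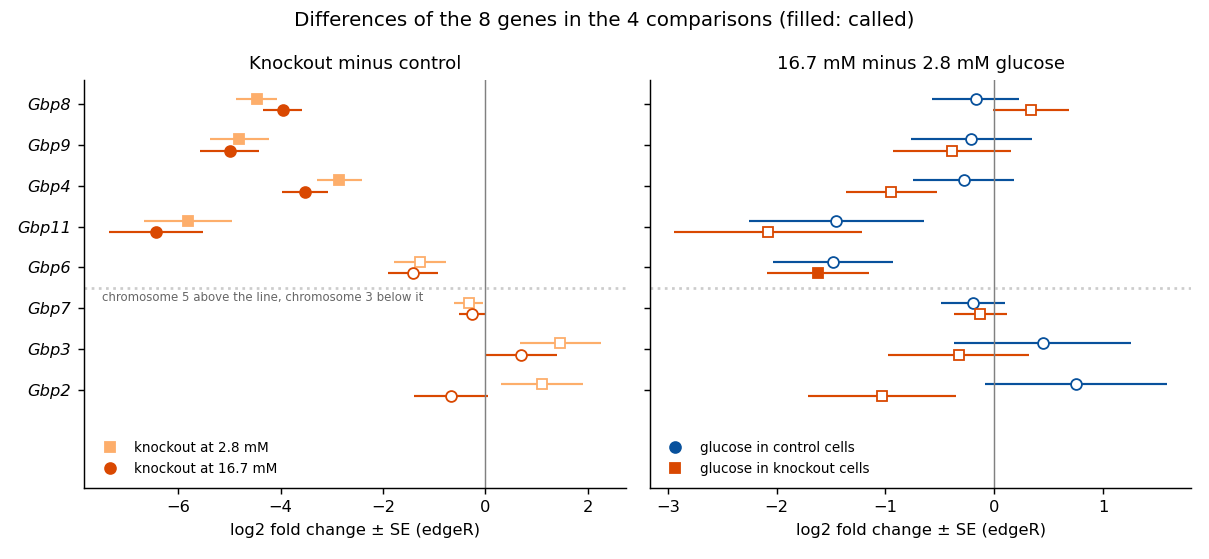
Log2 fold changes of the 8 genes with their SE (horizontal bars) for knockout against control at 2.8 and 16.7 mM glucose (left) and for 16.7 against 2.8 mM glucose in control and knockout cells (right). Filled symbols are called differences. *Gbp8*, *Gbp9*, *Gbp4* and *Gbp11* are called on the left, and *Gbp6* in knockout cells is the only one called on the right.

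The transcripts behind the gene values were compared as well, as shares of a gene's TPM averaged over the samples of a group. Gbp8-201, the coding transcript of *Gbp8*, held 68.6% and 74.8% in control cells at 2.8 and 16.7 mM and 72.4% and 74.5% in the knockout, and its level was 9.97 and 5.65 TPM in control cells and 0.527 and 0.342 TPM in the knockout. Nearly all of *Gbp11* was the transcript Gbp11-201 (100% in control cells, 96.6% and 85.1% in the knockout). *Gbp4* differed, since its retained-intron transcript made up 8.84% and 9.66% of its TPM in control cells but 54.8% and 68.0% in *Pcbp2* βKO cells. In absolute terms this transcript was at 0.0921 and 0.0498 TPM in control cells and at 0.0885 and 0.0365 TPM in the knockout. Over the same groups the nonsense-mediated decay transcript Gbp4-202 went from 0.465 and 0.319 TPM in control cells to 0.0482 and 0.00287 TPM in the knockout. In control cells Gbp4-202 held 44.6% and 61.9% of the gene's TPM at 2.8 and 16.7 mM. The coding transcript Gbp4-201 held 21.0% and 0.00196% there, beside shorter coding transcripts. *Gbp6* was split between the coding transcript Gbp6-201 (41.9% and 42.1% in control cells, 62.2% and 69.3% in the knockout) and a transcript marked for nonsense-mediated decay (41.8%, 39.3%, 29.7% and 24.1%). These shares were not tested. For *Gbp4* and *Gbp11* those of the knockout come from at most 66 estimated counts per library, whereas *Gbp6* had 418 to 943 in the knockout at 2.8 mM and 47 to 452 at 16.7 mM.

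Genes around the clusters were looked at next. Within 1 Mb of a member on chromosome 5, 18 other genes were tested, and 1 was called in each comparison of genotypes, *Lrrc8c* in both. Among all tested genes 1.71% were called at 16.7 mM and 2.04% at 2.8 mM, and nothing is read from a count of 1 gene. *Lrrc8c* encodes a subunit of volume-regulated anion channels and lies at chr5:105666591-105760884 on the plus strand, 172 kb beyond *Gbp11*. It measured 2.67, 4.56 and 7.94 CPM in control cells at 2.8 mM and 2.02, 4.22, 8.27 and 2.39 CPM at 16.7 mM, against 0.0212 to 0.260 CPM in the 5 knockout samples at 2.8 mM and 0.0308 to 0.240 CPM in the 5 at 16.7 mM. As for *Gbp8*, *Gbp9* and *Gbp4*, the genotypes did not overlap and control replicate 3 was the highest at both concentrations. The log2 fold change was -5.06 ± 0.62 at 2.8 mM (adjusted p = 7.25e-05) and -5.31 ± 0.63 at 16.7 mM (adjusted p = 7.88e-05). The call at 16.7 mM was lost with limma on log2(TPM + 1).

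*Lrrc8b*, between *Gbp11* and *Lrrc8c*, had log2 fold changes of -0.32 ± 0.45 (adjusted p = 0.843) and -0.85 ± 0.43 (adjusted p = 0.445) at 2.8 and 16.7 mM, and *Lrrc8d*, the next gene after *Lrrc8c*, -0.06 ± 0.14 (adjusted p = 0.923) and -0.23 ± 0.13 (adjusted p = 0.532). *Abcg3*, the nearest tested gene on the other side of the cluster, had -2.30 ± 0.89 (adjusted p = 0.257) and -2.09 ± 0.92 (adjusted p = 0.355) at no more than 0.278 CPM. On chromosome 3, 8 neighbours were tested and edgeR called 0 of them in either comparison of genotypes, with 2 at an unadjusted p under 0.05 in each. DESeq2 called 1 in each, and limma called 0. For glucose in control cells 1 of the 8 was called, where 13.8% of all tested genes were. It was *Gtf2b*, a general transcription factor, which was higher by 0.90 ± 0.18 on the log2 scale.

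**Figure D4:**
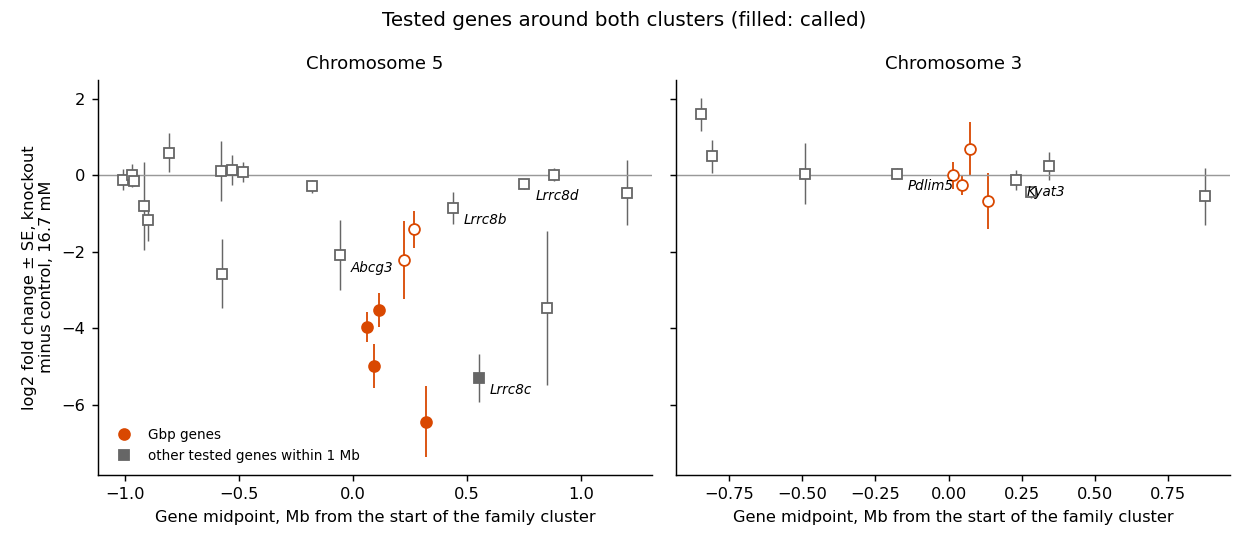
Log2 fold change with SE of knockout against control cells at 16.7 mM glucose for the tested Gbp genes (circles) and the other tested genes within 1 Mb (squares) on chromosomes 5 and 3, by the distance of the gene's midpoint from the start of the first family gene. Filled symbols are called differences. On chromosome 5, 4 Gbp genes and *Lrrc8c* are called, with uncalled genes between and around them.

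The genes whose log2 CPM over the 17 samples was most like that of each member were taken from 13073 genes outside the family with a mean of at least 1 CPM. Closest to *Gbp8* were *Fbxw24* (r = 0.970), *Syt10* (0.969), *Lrrc8c* (0.969), *Cym* (0.962) and *Kcnj5* (0.959). Closest to *Gbp9* were *Adgrg6* (0.982), *Dipk1a* (0.981), *Syt10* (0.979), *Syndig1* (0.979) and *Gm13716* (0.972), and *Dipk1a*, *Syndig1* and *Gm13716* were also among the 5 closest to *Gbp4* (0.967, 0.955 and 0.947), with *Spic* (0.957) and *Ivd* (0.954). *Gbp11* was most like *Tap2* (0.950), followed by *Rps13-ps1* (0.946), *Gm10163* (0.939), *Pcbp2* itself (0.936) and *Dab1* (0.933). *Gbp6* was most like *Tenm4* (0.918), *Rasgef1b* (0.914), *Tap1* (0.913), *Pid1* (0.912) and *Gsto1* (0.909), and *Gbp7* most like *Ablim1* (0.892). For *Gbp3* and *Gbp2* the closest genes were *Gab1* (0.837) and *Npr2* (0.798). For the mean of the members they were *Igfbp5* (0.905), *Gpm6a* (0.901), *Slc22a21* (0.882), *Pcbp2* (0.872) and *B3galt1* (0.864). These samples share genotype, glucose and libraries, so the values describe a pattern over 4 groups.

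The wider interferon pathway and the partners of GBPs were described by lists with 107 tested genes, of which edgeR called 2 between genotypes at each concentration. Among all tested genes 1.71% were called at 16.7 mM and 2.04% at 2.8 mM, so these counts are near the background. None of the 10 interferon ligands on the list passed the filter on low counts, and no library held more than 13 estimated counts of any of them. Of 19 tested receptors, kinases and factors, 1 was lower in the knockout at 16.7 mM and 0 at 2.8 mM, where 2 had an unadjusted p under 0.05 and DESeq2 and limma called 0. The gene called was *Ifngr2*, the second chain of the interferon-γ receptor, which fell by 0.79 ± 0.15 on the log2 scale at 16.7 mM (adjusted p = 0.00889) and was at -0.48 ± 0.17 at 2.8 mM (adjusted p = 0.173). *Irf1*, an interferon-induced transcription factor named here outside the rule after its values were seen, had a log2 fold change of 0.62 ± 0.19 at 16.7 mM (adjusted p = 0.121). The median log2 fold change of this list was 0.11 at 16.7 mM and 0.04 at 2.8 mM, against 0.01 and 0.03 for all tested genes. *Jak2* and *Irf8* were lower and *Tyk2* higher with glucose in knockout cells (-0.74, -1.47 and 0.63).

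The immunity-related GTPases (IRG), the other family of interferon-induced GTPases that act on vacuoles, were represented by 10 tested genes. With edgeR 0 of 10 differed between genotypes at either concentration, with 0 and 1 at an unadjusted p under 0.05 at 16.7 and 2.8 mM, and DESeq2 and limma called 0. *Irgm1* had log2 fold changes of 0.10 ± 0.15 at 2.8 mM (adjusted p = 0.844) and 0.15 ± 0.13 at 16.7 mM (adjusted p = 0.750), and *Igtp* -0.19 ± 0.18 (adjusted p = 0.736) and -0.28 ± 0.17 (adjusted p = 0.571). *Irgm2* lay at -0.04 ± 0.23 and -0.19 ± 0.21. Irgq, a divergent member, was higher with glucose in both genotypes (1.00 and 0.71).

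Of 29 tested genes of the type I interferon response, edgeR called 0 between genotypes, with 4 at an unadjusted p under 0.05 at 2.8 mM and 3 at 16.7 mM. DESeq2 called 2 at 2.8 mM and 0 at 16.7 mM, and limma called 0 at both. The list's medians were 0.02 and 0.05. With glucose, *Bst2*, an antiviral membrane protein, fell by 1.32 in control cells and by 1.55 in the knockout on the log2 scale. With glucose in knockout cells *Ifit1* was called lower (-1.04), and *Cmpk2* and *Rsad2*, neighbouring antiviral genes, were called higher (0.93 and 1.27). The interaction called 0 of the 29, with 2 at an unadjusted p under 0.05 and 0 called by DESeq2 and limma.

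Antigen presentation held the only gene of these lists that was called in both comparisons of genotypes. *Tap2*, a subunit of the transporter that brings peptides to MHC class I, fell by 0.83 ± 0.14 on the log2 scale at 2.8 mM (adjusted p = 0.00243) and by 1.07 ± 0.13 at 16.7 mM (adjusted p = 0.000119). Its CPM was 66.2 to 85.0 and 63.2 to 91.5 in control cells and 39.1 to 46.7 and 33.1 to 46.97 in *Pcbp2* βKO cells. It was the only one of 13 tested genes called at either concentration, and the list's median was -0.01 at 2.8 mM and 0.04 at 16.7 mM. On log2 TPM limma did not call it at 2.8 mM. With glucose 4 of 13 were lower in control cells and 6 of 13 in the knockout, with medians of -0.45 and -0.60 against 0.04 and 0.01 for all tested genes. Among all tested genes 6.69% and 10.4% were called lower. Macrophage and myeloid markers, of which 7 of 9 were called lower with glucose in knockout cells and 1 of 9 in control cells, moved as well, and their part was not tested. Of the antigen presentation genes, *B2m*, the light chain of MHC class I, fell by 1.04 and 1.39, *Cd274*, which encodes PD-L1, by 1.25 and 1.00, and *Tap1* by 0.62 and 0.81.

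Of the 3 tested chemokines, *Cxcl11* was called lower in the knockout at 2.8 mM (-3.22, adjusted p = 0.0188), with 0.180 to 0.569 CPM in control cells and 0.00999 to 0.0954 CPM in the knockout, although limma did not call it. At 16.7 mM edgeR called 0, with 2 at an unadjusted p under 0.05 and 0 called by DESeq2 and limma. *Cxcl10* and *Ccl5* were called lower with glucose in knockout cells (-2.43 and -1.74). Of the 5 brakes on interferon signalling edgeR called 0 between genotypes, with 1 at an unadjusted p under 0.05 at either concentration. DESeq2 called 1 at 2.8 mM, and limma called 0. *Socs3* rose with glucose in both genotypes (1.96 and 1.19), and *Ptpn2* was called lower with glucose in knockout cells (-0.64). With edgeR *Pias1* and *Usp18* were not called in any comparison, *Usp18* being at -1.27 ± 0.37 in the knockout at 2.8 mM (adjusted p = 0.0941).

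The 3 remaining lists concern proteins that GBPs work with or resemble. Between genotypes edgeR called 0 of 8 inflammasome partners (0 and 2 at an unadjusted p under 0.05 at 16.7 and 2.8 mM), 0 of 12 other GTPases of the dynamin superfamily (1 and 0) and 0 of 8 genes of prenylation (0 and 1). DESeq2 called 1 of the dynamin superfamily genes at 16.7 mM and none of the others, and limma called 0. With glucose *Il1b* and *Nlrc4* of the inflammasome list rose in both genotypes (*Il1b* by 2.74 and 3.56, *Nlrc4* by 2.02 and 1.01), and *Naip5* in the knockout (1.75). *Il1b* did not exceed 3.75 CPM. *Atl1*, an atlastin that fuses membranes of the endoplasmic reticulum, rose by 1.53 and 1.73, and *Zmpste24*, a protease that trims prenylated proteins, by 0.72 and 0.76. With glucose in knockout cells *Opa1* (-0.82) and *Rabggtb* (-0.64) were called lower and *Fntb* (0.80) higher. Over all 107 tested genes of these lists the interaction of genotype and glucose called 0, with 2 at an unadjusted p under 0.05 and 0 called by DESeq2 and limma.

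**Figure D5:**
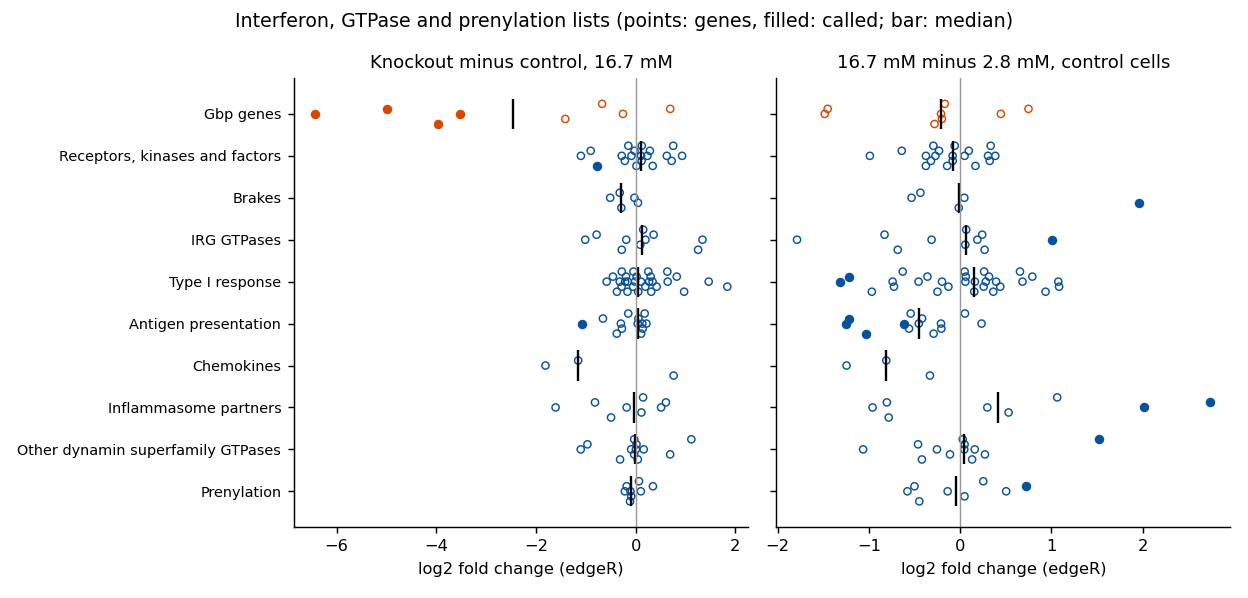
Log2 fold changes of the 8 Gbp genes and of the tested genes of 9 lists for knockout against control at 16.7 mM glucose (left) and for 16.7 against 2.8 mM glucose in control cells (right). Each point is a gene, filled where called, and the vertical bar is the median of a list. On the left the called genes outside the Gbp genes are *Ifngr2* and *Tap2*, and on the right 4 genes of antigen presentation are called, all to the left of 0.

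Macrophages and endothelial cells also express GBPs, so their markers were examined in the sorted samples. The summed CPM of 9 macrophage and myeloid markers was 86.6 to 163 in control cells and 48.7 to 191 in *Pcbp2* βKO cells at 2.8 mM, and 38.9 to 106 and 21.5 to 111 at 16.7 mM. That of 7 endothelial markers was 3.00 to 3.96 and 2.96 to 4.19 at 2.8 mM and 4.05 to 6.75 and 3.79 to 6.42 at 16.7 mM. The ranges of both lists overlapped between genotypes at each concentration. With glucose in knockout cells 7 of the 9 macrophage and myeloid markers were called lower, as *Gbp6* was, and 1 was called higher. In control cells 1 was called lower and 0 higher, and between genotypes 1 was called lower in the knockout at 2.8 mM and 0 at 16.7 mM. Markers of T and NK cells summed to 0.924 to 2.20 CPM over all samples and those of dendritic cells to at most 0.919 CPM. The 3 B cell markers summed to 2.37 to 3.41 CPM in control cells and 5.36 to 10.7 CPM in *Pcbp2* βKO cells at 2.8 mM, and overlapped at 16.7 mM. The β cell markers were also separate at 2.8 mM, at 118395 to 122656 CPM in control cells and 66823 to 96960 CPM in the knockout. The PP cell marker was separate in the other direction, at 797 to 835 CPM and 992 to 5112 CPM, and the 4 α cell markers summed to 678 to 2601 CPM and 1549 to 9404 CPM. With edgeR 2 of the 10 β cell markers were called lower at 2.8 mM. The part of β cell content or of other cells in the knockout differences was not tested, nor was the part of macrophages and myeloid cells in the glucose difference of *Gbp6*.

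Without the 3 libraries that stood apart the knockout differences were as large. *Gbp8* then had a log2 fold change of -4.37 at 16.7 mM, *Gbp9* -5.25 and *Gbp4* -3.79. *Gbp11* then rested on 3 knockout libraries with a count of 0. The study's own model held a batch term, whose levels were not given in the sources used here, so within-batch values could not be computed and batch and group cannot be told apart here.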

How the data were processed

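RNA of sorted tdTomato+ β cells was sequenced by the authors as 150-nt read pairs from polyA libraries (Illumina Ultra Low Input RNA kit; strand not given in the sources used here) and quantified with Kallisto on the GRCm39 transcriptome. The deposited files give, for each of 17 samples, estimated counts per transcript, not normalized between samples, and TPM, which the authors' Kallisto run scaled to effective length and to a fixed total. Batch levels of the authors' edgeR design were not given in the sources used here.

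Gene values are sums of the estimated counts of all transcripts of an Ensembl gene ID, rounded and normalized with TMM, and genes were kept by edgeR's filterByExpr with 4 groups (22784 of 55357). One quasi-likelihood fit of 4 group means (edgeR 4.0.16, R 4.3.3) gave 5 contrasts with Benjamini-Hochberg adjustment over all tested genes; differences were called when adjusted p was under 0.05 and the change exceeded 1.5-fold. Log2 CPM for correlations used a prior count of 2. The script was tested on simulated data. Alternatives were DESeq2 1.42.0, its size factors, library totals alone, limma 3.58.1 on log2(TPM + 0.1) and log2(TPM + 1), no filter, no fold threshold, a replicate block, fits of the compared groups alone, each sample left out, and 3 libraries left out. Coding sequences, positions and 31-base stretches came from GENCODE vM39 (GRCm39; 38 of the 39 Gbp transcripts of the files found), aligned with Biopython 1.88.

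The members, lists and tests were chosen with earlier results of these data known. Genes were named by a rule: the family, *Pcbp2*, up to 4 genes a list (called in the most comparisons, ties by mean CPM), neighbours within 1 Mb that were called or next to the cluster, and the 5 most similar genes. Replicate numbers come from the labels. Deviations of same-numbered control samples at 2.8 and 16.7 mM correlated with r = 0.199, 0.123 and 0.258, each over 0.1, so these numbers were taken to pair the samples. In every other comparison at least 1 pair was at or below 0.1. A single pair there reached r = 0.354, that of replicate 4 of control and knockout cells at 16.7 mM. Samples of different numbers were not compared, so the rule cannot show that the numbers pair the samples. The replicate block was nonetheless shared by all groups, so it also matched samples that were not taken to pair. Counts behind a value set its precision: 5 to 22 for *Gbp9* in knockout libraries, 71 to 4438 for *Gbp8* over all libraries.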

Additional observations from a re-analysis of the deposited data

Results flagged for a closer look

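Among the 24 sets of 4 or 5 samples looked at (8 genes in 3 groups), 3 held a sample far from the others. The genes share libraries and several have low counts, so the number of flagged sets is not set against a rate of chance. All 3 were in *Pcbp2* βKO cells at 16.7 mM. Replicate 4 was far above the others for *Gbp11*, at 0.415 CPM against 0.0128 CPM in the next highest sample, a gap of 0.969 of the group's range. The same replicate was high for *Gbp6*, at 6.06 CPM against 1.90 CPM, a gap of 0.779 of the range. It is also 1 of the 3 libraries that stood apart on the first principal component. Replicate 5 was high for *Gbp2*, at 0.552 CPM against 0.161 CPM, a gap of 0.905 of the range, from 43 estimated counts.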

How the results depend on the processing

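The 4 members called lower in both comparisons of genotypes were *Gbp4*, *Gbp8*, *Gbp9* and *Gbp11* under every alternative but limma on log2(TPM + 1), which called 2 at 16.7 mM, *Gbp8* and *Gbp11*. The replicate block called 5 in each, with *Gbp6* added. For glucose in control cells, 0 members were called, against 1 (*Gbp6*) with no filter, library totals alone, DESeq2, the replicate block, the compared groups alone or without the 3 libraries apart, and 3 and 4 with limma on log2(TPM + 0.1) and log2(TPM + 1); leaving out 1 sample gave 0 to 1, with *Gbp6* called without control replicate 4 at 16.7 mM. For glucose in knockout cells, 1 was called, against 2 with no filter, limma on log2(TPM + 1), the block, the compared groups alone or without the 3 libraries, and 3 with library totals alone and limma on log2(TPM + 0.1); leaving out 1 sample gave 1 to 2, *Gbp11* being added without knockout replicate 4 at 16.7 mM. The interaction stayed at 0. In the pathway lists, the number called was 12 for glucose in control cells (block 21, without the 3 libraries 23, 1 sample left out 6 to 17, lowest without control replicate 2 at 2.8 mM), 2 for the knockout at 16.7 mM (block 5, 1 left out 1 to 6, the extremes without control replicates 3 and 4) and 2 at 2.8 mM (block 4, without the 3 libraries 4, 1 left out 1 to 3, lowest without control replicate 1 or 3). Counting *Gbp6*, *Gbp10* and *Gm43302* as 1 gene, an alternative chosen after seeing the data, changed no call. Of the members' other values, 723 kept their side of the threshold or moved by less than 1 SD, 24 newly passed the threshold and 18 moved further; among uncalled values, that of glucose changed sign under some setting in control cells for *Gbp2*, *Gbp3*, *Gbp4*, *Gbp7*, *Gbp8* and *Gbp9* and in knockout cells for *Gbp7* and *Gbp8*, the interaction for *Gbp4*, *Gbp6*, *Gbp7*, *Gbp9* and *Gbp11*, and *Gbp2* in the knockout at 16.7 mM. Why these values moved was not tested. Low levels (*Gbp2* and *Gbp3* in all groups, and *Gbp4*, *Gbp9* and *Gbp11* in knockout cells) are limited by counts.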
